A study of Homo sapiens with 9 samples.

Results

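The miRNAs of Jurkat cells activated for 12 h were compared with those of unactivated Jurkat cells (0 h), using the 3 libraries labelled 12h and the 3 labelled 0h out of 9 small RNA libraries. Members were all mature miRNAs in the count table, each taken once from its precursor row with the highest total. Of 2654 mature names, 1556 had 0 counts in all 9 libraries, 993 had a count in at least 1 of the 6 libraries compared, and 629 passed the filter on low counts and were tested.

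Jurkat clone E6-1 is an established human T lymphoblast line grown from 1 clone, kept in serum-containing medium, and it has a working T cell receptor. The 0 h group held non-activated control cells. The 12 h group had been kept for 12 h on plates coated with antibody to CD3 (10 µg/mL), the signalling part of the receptor, and the medium contained antibody to CD28, a costimulatory receptor (5 µg/mL). The labels name 3 biological replicates per group and do not say how the cultures were kept apart, so p-values measure the spread between these samples. No unactivated cells were collected after 12 h, so activation and time on the plate cannot be told apart. In RNA from whole cultures, a change in every cell and a larger change in fewer cells cannot be told apart either.

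A miRNA is cut from a hairpin precursor, and either arm of the hairpin (5p or 3p) can be loaded into an Argonaute protein, which it guides to messenger RNAs, mainly by pairing of its seed (bases 2 to 8). One arm is usually far more abundant than the other. Receptor signalling in T cells activates the transcription factors NF-kB, AP-1, NFAT and CREB, and several miRNA genes are known targets of NF-kB, AP-1 or CREB. Mature miRNAs are long-lived as a rule.

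The sequences below belong to the miRNAs that changed, other than miR-21-3p, and to those that share a seed with them. They are RefSeq mature sequences (GRCh38.p14), 5′ to 3′, with the seed in capitals. RefSeq held a sequence for 2365 of the 2654 mature names, which covered at least 97.4% of the counts of every library.
miR-132-3p: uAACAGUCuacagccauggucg
miR-212-3p: uAACAGUCuccagucacggcc
miR-132-5p: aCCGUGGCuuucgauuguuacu
miR-212-5p: aCCUUGGCucuagacugcuuacu
miR-146a-5p: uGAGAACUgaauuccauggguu
miR-146b-5p: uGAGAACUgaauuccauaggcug
miR-21-5p: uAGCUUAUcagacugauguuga
miR-590-5p: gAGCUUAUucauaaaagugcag
miR-222-3p: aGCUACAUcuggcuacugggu
miR-221-3p: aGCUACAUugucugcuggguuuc
miR-142-3p: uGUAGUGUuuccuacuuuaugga
miR-4521: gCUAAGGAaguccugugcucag
miR-296-3p: gAGGGUUGgguggaggcucucc
miR-25-5p: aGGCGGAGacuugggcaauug

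miR-132-3p and miR-212-3p share the seed AACAGUC, the miR-146 pair shares GAGAACU, miR-21-5p and miR-590-5p share AGCUUAU, and miR-221-3p and miR-222-3p share GCUACAU. The other 6 sequences each had a seed that no other printed sequence holds.

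Library totals, with each mature miRNA counted once, ran from 4232272 to 9764870 counts over the 6 libraries. Levels are counts per 1000000 of these totals after TMM scaling (CPM), and a floor of 3 counts stood at 0.304 to 0.731 CPM over the 6 libraries, which covers counting error only. Replicate 3 of 0 h and replicate 3 of 12 h were the shallowest, and they lay apart from the other 7 libraries on the first principal components (18% and 16.1% of the variance). They stood at opposite ends of the first (-22.94 and 21.84). Results that rest on them are given without them as well. Changes are log2 fold changes at 12 h minus 0 h from edgeR's quasi-likelihood fit, each with its standard error (SE). "Rose" and "fell" mean a Benjamini-Hochberg adjusted p under 0.05 over all 629 miRNAs.

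At 12 h, 9 miRNAs rose (1.43% of those tested) and 3 fell (0.477%), or 1.91% in all. Those that rose were both arms of miR-132, of miR-212 and of miR-21, together with miR-146a-5p, miR-142-3p and miR-222-3p. Those that fell were miR-4521, miR-296-3p and miR-25-5p. The median change over all tested miRNAs was 0.01. The 2 groups did not overlap for 73 miRNAs (11.6%), of which 43 were higher (6.84%) and 30 lower (4.77%) at 12 h. For 1 miRNA, full separation of 3 against 3 libraries has an exact two-sided permutation p of 0.1. That is close to the share seen, so groups without overlap are by themselves weak evidence of a change. Upper quartile scaling moved the median change to 0.14 and left 9 that rose and 1 that fell. Without replicate 1 of 0 h the counts were 7 and 1, and without both shallow libraries they were 6 and 2.

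**Figure D1:**
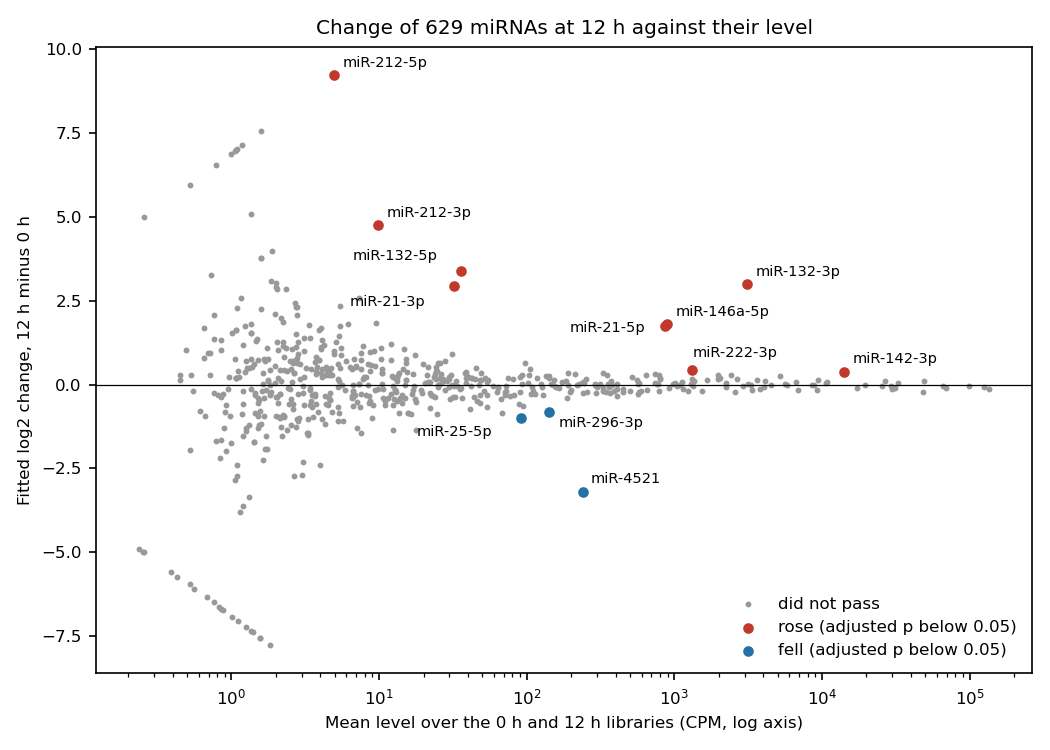
Fitted log2 change at 12 h minus 0 h (vertical axis) against the mean level over the 0 h and 12 h libraries (CPM, log axis) for 629 miRNAs, 1 point each; red points rose and blue points fell at an adjusted p under 0.05. The 12 named miRNAs stand off the line at 0, while the scatter of the others widens toward low levels, and the slanting rows of points at the left are miRNAs with 0 counts in 1 group.

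Both miRNAs of the miR-132 and miR-212 locus rose, on both arms. They are CREB-responsive miRNAs best known from stimulated neurons, and their hairpins lie side by side on the minus strand of chromosome 17 (GENCODE 29, GRCh38; miR-132 at 2049908 to 2050008 and miR-212 at 2050271 to 2050380), with 262 bases between them and no other annotated gene overlapping either. miR-132-3p was at 769, 644 and 669 CPM in the 0 h replicates and at 5569, 5412 and 5675 CPM in the 12 h replicates. Each 12 h library thus held more than any 0 h library, and the spread at each time was small beside the difference. The level went from 693.9 ± 65.9 to 5552 ± 133 CPM (SD, n = 3), an 8.0-fold rise (log2 change 3.00, SE 0.12, 95% interval 2.75 to 3.25, edgeR adjusted p = 5.06e-13). Among all miRNAs of a library it moved from rank 64, 69 and 67 by level to rank 27, 27 and 26.

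The minor arm miR-132-5p was at 0.608, 13.6 and 4.38 CPM at 0 h and at 57.0, 78.4 and 61.9 CPM at 12 h. The 0 h libraries differed widely among themselves (6, 116 and 18 counts) and all lay below the 12 h libraries. The change was 10.6-fold (log2 3.39, SE 0.59, edgeR adjusted p = 0.00136). The fit gave 4.87 when replicate 2 of 0 h was left out and 2.82 when replicate 1 was. The edgeR adjusted p was 0.0774 without both shallow libraries and 0.075 with only the 0 h and 12 h libraries.

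miR-212-3p was nearly undetected before activation, with 18, 0 and 0 counts in the 0 h libraries (1.82, 0 and 0 CPM), and reached 126, 91 and 125 counts at 12 h (14.9, 12.2 and 30.3 CPM). Its fitted log2 change was 4.75 (SE 0.90, edgeR adjusted p = 0.00365). The estimate rests on the 18 counts of replicate 1 of 0 h: leaving it out left 0 counts among the controls and a fitted 10.08, a value set by the prior count that bounds nothing. The fit gave 4.12 without replicate 2 of 0 h and, without both shallow libraries, 3.84 (adjusted p = 0.0971). With only the 0 h and 12 h libraries miR-212-3p did not pass either (edgeR adjusted p = 0.0877). miR-212-5p had 0 counts in all 3 libraries at 0 h and 87, 112 and 19 at 12 h (10.3, 15.04 and 4.61 CPM). Set against 3 counts over the whole 0 h group (0.133 CPM), its 12 h mean of 9.97 ± 5.22 CPM was at least 74.8-fold higher. This bound covers counting error at 0 h only and leaves out the spread of the 12 h libraries. The edgeR adjusted p of 0.000844 belongs to the fitted change and not to the bound. Leaving out replicate 1, 2 or 3 of 0 h lowered that bound to 42.0-fold, 46.5-fold or 61.1-fold.

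The miR-21 hairpin, which lies within an exon of VMP1 as annotated (chromosome 17, 59841266 to 59841337, plus strand), gave a rise of both arms. miR-21-5p, which represses PDCD4, was at 386, 465 and 349 CPM at 0 h and at 1540, 1161 and 1326 CPM at 12 h, so the lowest 12 h library held more than any 0 h library. The mean went from 400.0 ± 59 to 1342 ± 190 CPM, a 3.36-fold rise (1.75 on the log2 scale, SE 0.14, 95% interval 1.45 to 2.04, edgeR adjusted p = 3.23e-08). The minor arm miR-21-3p went from 2.43, 7.63 and 12.7 CPM to 41.8, 52.5 and 75.7 CPM. This was a 7.48-fold rise with groups that did not overlap (log2 change 2.95, SE 0.41, 95% interval 2.10 to 3.81, edgeR adjusted p = 0.000102).

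miR-146a-5p, which is induced by NF-kB and represses the adaptors TRAF6 and IRAK1 upstream of it, was at 398, 380 and 424 CPM at 0 h and at 1510, 1457 and 1197 CPM at 12 h. The groups were far apart and the mean went from 400.9 ± 21.8 to 1388 ± 168 CPM, a 3.46-fold rise (1.79 on the log2 scale, SE 0.13, 95% interval 1.52 to 2.06, edgeR adjusted p = 6.04e-09). Its rank went from 86, 91 and 82 to 52, 49 and 54. The other arm, miR-146a-3p, had 0 counts in all 9 libraries, which allows at most 0.304 to 0.731 CPM in the 6 compared. miR-146b-5p, which has the same seed but comes from another gene on chromosome 10, was at 204, 268 and 234 CPM at 0 h and at 337, 270 and 190 CPM at 12 h. Its groups overlapped and its log2 change was 0.18 (SE 0.19, 95% interval -0.22 to 0.57).

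The hairpin of miR-146a (chromosome 5, 160485352 to 160485450, plus strand) lies in an exon of MIR3142HG, a long noncoding RNA. The RefSeq promoter window of MIR3142HG is shown because miR-146a-5p is a known NF-kB target and its level rose here. It spans chr5:160468001-160468300 (GRCh38.p14, plus strand, 250 bases before to 50 after the start), and capitals mark the NF-kB motif.
MIR3142HG: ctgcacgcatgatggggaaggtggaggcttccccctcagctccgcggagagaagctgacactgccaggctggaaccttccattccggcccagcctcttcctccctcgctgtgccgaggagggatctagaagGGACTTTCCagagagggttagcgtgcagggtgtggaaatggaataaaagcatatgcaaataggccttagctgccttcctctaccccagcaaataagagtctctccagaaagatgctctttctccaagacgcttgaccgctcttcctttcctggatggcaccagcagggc

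Searched on both strands, this window held the NF-kB letters GGANTTTCC (N is any base) once, starting 119 bases before the start site, and held neither the AP-1 letters TGACTCA nor the CRE letters TGACGTCA. Of 35116 RefSeq promoter windows, 1.64% held the NF-kB letters, 4.95% the AP-1 letters and 1.85% the CRE letters, and no motif overlapped another in the window shown. The windows of MIR142HG and of MIR222HG and MCM7, whose introns hold miR-222 and miR-25, had none of the 3 motifs, and that of MIR155HG had the AP-1 letters once, starting 60 bases before its start. A match describes the letters only. No windows are given for miR-132, miR-212, miR-21, miR-296 and miR-4521, so the windows described are no survey of the miRNAs that changed.

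miR-155-5p, made from MIR155HG and known for its induction in activated lymphocytes, stayed scarce in these cells. It was at 0.912, 2.47 and 9.50 CPM at 0 h and at 11.3, 20.3 and 12.6 CPM at 12 h. Every 12 h library was above every 0 h library, but the change did not pass (log2 1.83, SE 0.67, edgeR adjusted p = 0.481). Without replicate 3 of 0 h, the highest and shallowest of the controls, it passed (log2 3.08, adjusted p = 0.012), and without both shallow libraries the adjusted p was 0.0388.

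miR-142-3p and miR-222-3p rose by less than 1.5-fold. miR-142-3p, made in nearly all blood cells from a hairpin on the minus strand of chromosome 17 (58331232 to 58331318), was at 11696, 12181 and 12683 CPM at 0 h and at 17338, 15128 and 15419 CPM at 12 h. The 12 h libraries were all higher, and the change was 1.31-fold (log2 0.39, SE 0.10, 95% interval 0.19 to 0.59, edgeR adjusted p = 0.0435). The call was lost when any 1 of the 9 libraries was left out, with adjusted p-values from 0.101 without replicate 3 of 5 h to 0.565 without replicate 1 of 12 h. Without both shallow libraries the edgeR adjusted p was 0.167.

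miR-222-3p, which with its neighbour miR-221-3p represses the cell cycle inhibitor CDKN1B, was at 1109, 1174 and 1093 CPM at 0 h and at 1553, 1639 and 1393 CPM at 12 h, again without overlap (1.36-fold; log2 0.44, SE 0.11, 95% interval 0.21 to 0.67, edgeR adjusted p = 0.0435). Its hairpin lies in an intron of MIR222HG on the X chromosome (45747015 to 45747124, minus strand). The call held without replicate 3 of 12 h (adjusted p = 0.0447) and was lost without any 1 of the other 8 libraries (0.101 to 0.52). It was also lost without both shallow libraries (edgeR adjusted p = 0.0702). miR-221-3p was at 645, 741 and 596 CPM at 0 h and at 912, 835 and 698 CPM at 12 h. Its groups overlapped and it did not pass (log2 0.30, SE 0.14, edgeR adjusted p = 0.626).

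The largest fall was that of miR-4521, a miRBase entry on chromosome 17 (8186945 to 8187004, plus strand) now regarded as a piece of a transfer RNA precursor. It was at 369, 418 and 508 CPM at 0 h and at 40.3, 45.9 and 56.0 CPM at 12 h. The lowest 0 h library held several times the highest 12 h library, and the mean went from 431.9 ± 70.4 to 47.4 ± 7.96 CPM, 9.10-fold lower (log2 change -3.19, SE 0.20, 95% interval -3.60 to -2.78, edgeR adjusted p = 5.5e-10). Its rank went from 91, 86 and 78 to 179, 175 and 165. In all, 9 of the entries listed as matching transfer, ribosomal or other structured RNAs were tested, and miR-4521 was the 1 that passed. miR-1246, listed with them, was at 743, 525 and 989 CPM at 0 h and at 486, 710 and 1353 CPM at 12 h (log2 0.17), with wide and overlapping groups.

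miR-296-3p comes from the imprinted GNAS locus (chromosome 20, 58817615 to 58817694, minus strand). It was at 181.9, 175.4 and 181.5 CPM at 0 h and at 102, 105 and 98.3 CPM at 12 h, with little spread in either group. It fell 1.77-fold (log2 change -0.82, SE 0.18, 95% interval -1.19 to -0.45, edgeR adjusted p = 0.0135). Leaving out replicate 1 of 0 h gave an adjusted p of 0.0627 and leaving out replicate 2 of 12 h one of 0.0508. Without both shallow libraries the edgeR adjusted p was 0.049.

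miR-25-5p is the minor arm of a hairpin in an intron of MCM7 (chromosome 7, 100093560 to 100093643, minus strand), a gene for a subunit of the replicative helicase. It was at 135, 100 and 128 CPM at 0 h and at 67.2, 72.0 and 43.9 CPM at 12 h. The groups did not overlap and the level fell 1.98-fold (log2 change -0.98, SE 0.22, 95% interval -1.45 to -0.51, edgeR adjusted p = 0.0216). Leaving out replicate 1 of 0 h gave an adjusted p of 0.162, leaving out replicate 3 of 12 h one of 0.0547, and leaving out both shallow libraries one of 0.13.

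**Figure D2:**
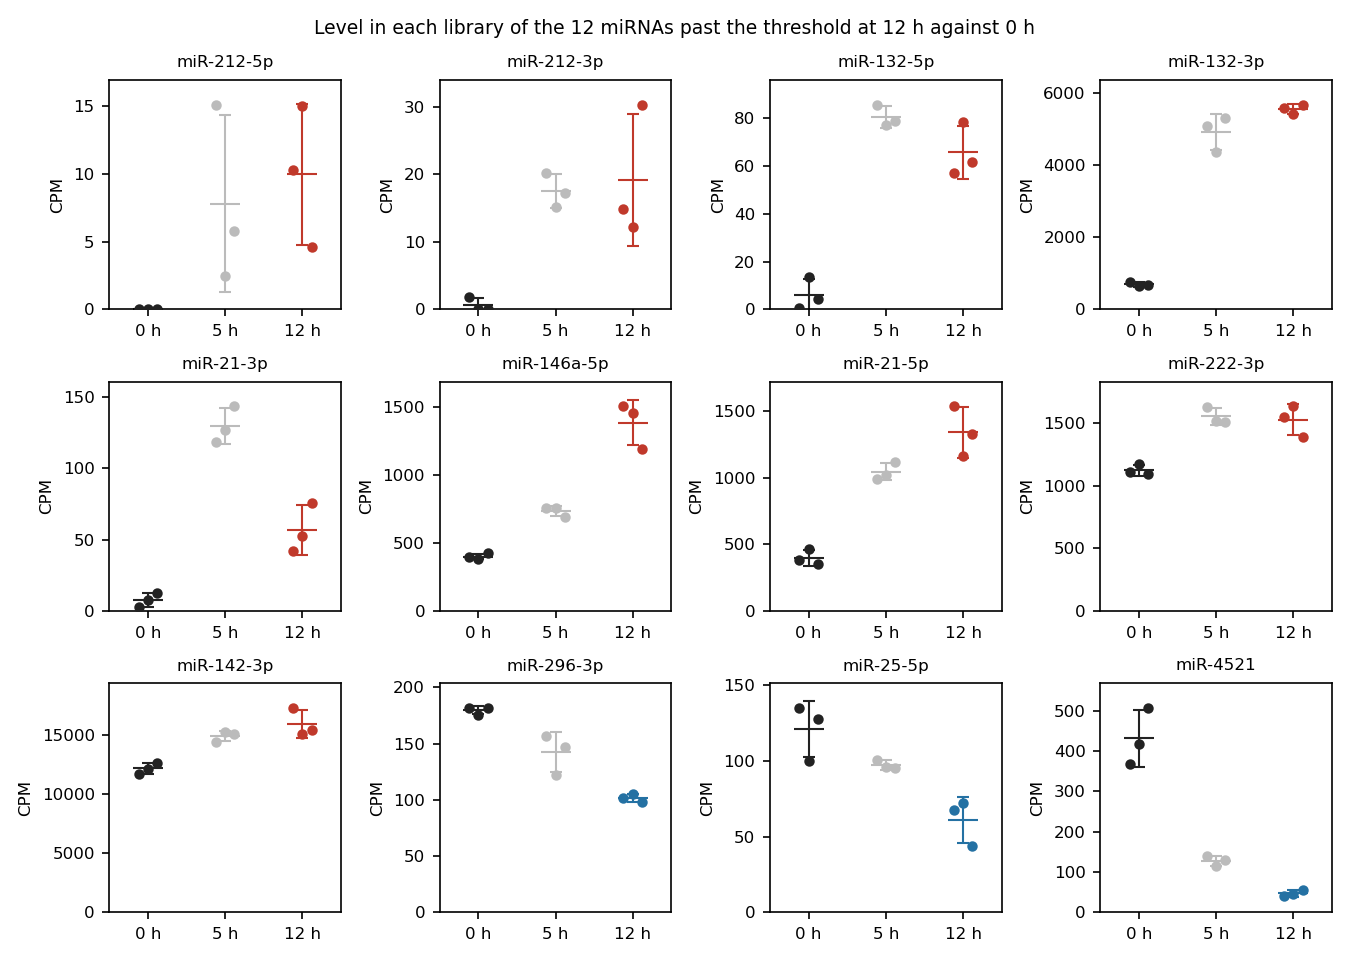
Level in CPM (linear axis from 0) of the 12 miRNAs that rose or fell, 1 panel each; points are libraries (replicates 1 to 3 from left to right), the long bar is the mean and the whiskers are 1 SD (n = 3), which the axis cuts off at 0. The 12 h points (red where they rose, blue where they fell) lie wholly above or below the 0 h points (black), and the 5 h libraries are in grey.

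The 5 h libraries share their 0 h controls with this comparison, so their levels are only set beside it. miR-132-3p was at 4918 ± 503 CPM at 5 h (5552 at 12 h), miR-132-5p at 80.7 ± 4.53 (65.8) and miR-212-3p at 17.5 ± 2.49 (19.1). miR-146a-5p was at 735.4 ± 38.2 CPM at 5 h (1388 at 12 h), and its 3 libraries at 5 h lay between the 0 h and the 12 h libraries. So did those of miR-4521 (128.1 ± 12.6 CPM at 5 h and 47.4 at 12 h) and of miR-296-3p (142.1 ± 17.8 and 101.6 CPM), whereas miR-21-3p was at 130 ± 12.8 CPM at 5 h and 56.7 at 12 h. miR-222-3p, at 1556 ± 67 CPM at 5 h, overlapped its 12 h range.

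The arms of a hairpin start from 1 transcript, so their changes were compared. Some mature miRNAs, miR-92a-3p, miR-181a-5p and miR-26a-5p among them, are made from more than 1 hairpin. Their pairs can mix reads of several loci, and a shared arm counts in each of its pairs. Of 67 hairpins with both arms at 10 CPM or more, both arms had changed for miR-21 and miR-132, and 1 arm for miR-25, miR-296, miR-142 and miR-222. miR-142-5p, the less abundant arm of its hairpin, was at 2174, 2402 and 2329 CPM at 0 h and at 2301, 2368 and 1950 CPM at 12 h (log2 -0.06, 95% interval -0.30 to 0.18). The direct test of its ratio to miR-142-3p is given below. miR-25-3p, the abundant arm opposite miR-25-5p and a member of the miR-92 seed family, was at 1032, 1457 and 1235 CPM at 0 h and at 1573, 1314 and 1280 CPM at 12 h (log2 0.16, 95% interval -0.12 to 0.44). miR-222-5p (log2 -0.09) and miR-296-5p (-0.01, 95% interval -0.93 to 0.91) had overlapping groups.

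No ratio of 5p to 3p passed when the arms were tested against each other, with 164 pairs tested in limma on log2 ratios. The spread of each pair was drawn toward a value common to all pairs, those with an arm near 0 counts included. The lowest SE was 0.25 (miR-142), so changes in the ratios of abundant hairpins may have been missed. An unadjusted p under 0.05 was reached by 12 pairs (7.32%), and the groups did not overlap for 25 (15.2%). For miR-25 the 5p to 3p ratio was lower in every 12 h library (log2 change -1.18, SE 0.35, limma adjusted p = 0.356), and for miR-142 it was also lower in each (-0.45, SE 0.25, adjusted p = 0.727). For miR-21 the groups overlapped (-1.39, SE 0.63, adjusted p = 0.597).

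The lowest adjusted p, 0.0848, was shared by the pairs of miR-96 (5.76), miR-92a-2 (-1.56) and miR-454 (-5.25). The 3p arm of the miR-92a-2 pair is also made from the miR-92a-1 hairpin, so that ratio can mix the loci. miR-96-3p, the scarce arm of a hairpin in the miR-183 cluster, had 46, 16 and 18 counts at 0 h and 0 in each 12 h library, and miR-454-5p had 54, 15 and 9 counts and then 0. Both are at levels where 1 arm is close to the floor. With 0 counts in an arm, the 12 h ratio rests on the 0.5 added to each count, so 5.76 and -5.25 are not measured sizes. With only the 0 h and 12 h libraries, 4 ratios passed in limma. They were miR-96 and miR-26a-1 (adjusted p = 0.0189 for each), and miR-454 and miR-23b (0.0211 for each). The scarce arms miR-26a-1-3p (30, 16 and 7 counts at 0 h) and miR-23b-5p (10, 17 and 8) also had 0 in each 12 h library. All 4 ratios at 12 h thus rest on the added 0.5. Leaving out replicate 2 of 5 h gave miR-96, miR-26a-1 and miR-454 (0.00746 to 0.00747), and leaving out replicate 1 of 5 h gave miR-96 and miR-23b (0.0205 for each). Leaving out replicate 1 of 0 h gave miR-4687 (0.00985), whose 3p arm had 22, 4 and 0 counts at 0 h.

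**Figure D3:**
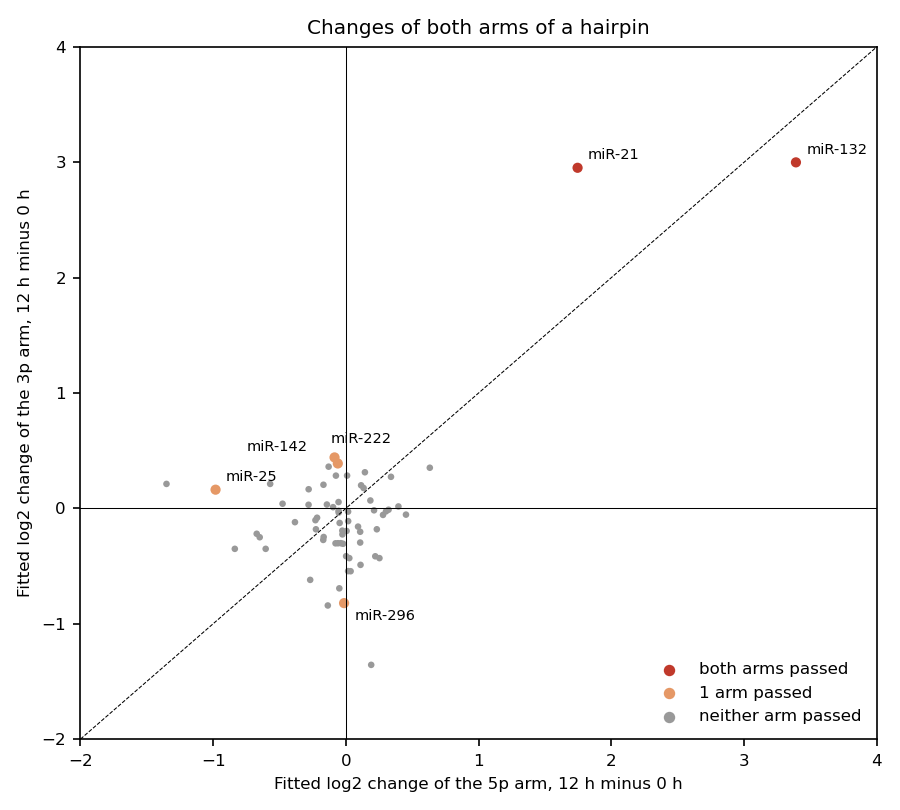
Fitted log2 change of the 3p arm (vertical axis) against that of the 5p arm (horizontal axis), 12 h minus 0 h, for the 67 hairpins with both arms at 10 CPM or more; red points had both arms past the threshold, orange points 1 arm, grey points neither, and the dashed line marks equal change. miR-132 and miR-21 stand alone at the upper right, and the orange points lie near 1 of the axes.

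Because targets are met by all miRNAs of a seed together, counts were also summed over mature miRNAs with the same bases 2 to 8 in RefSeq, which left out miR-21-3p. Of 475 seeds tested, 6 rose (1.26%) and 3 fell (0.632%), 1.89% in all. The seed AACAGUC rose by 3.04, with miR-132-3p supplying 99.9% of its counts at 0 h and 99.7% at 12 h, and miR-212-3p going from 0.114% to 0.307%. The seed GAGAACU rose by 1.41, less than miR-146a-5p alone, since miR-146b-5p held part of it: miR-146a-5p made up 62.9% of the seed at 0 h and 83.5% at 12 h.

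Likewise AGCUUAU rose by 1.47 while miR-21-5p went from 72.4% to 89.7% of it and miR-590-5p, from another gene, held the rest. The seed GCUACAU of miR-221-3p and miR-222-3p changed by 0.43 and did not pass (edgeR adjusted p = 0.090). The seeds of miR-132-5p (3.41), miR-142-3p (0.42), miR-4521 (-3.16), miR-296-3p (-0.79) and miR-25-5p (-0.94) passed. So did that of miR-212-5p, whose fitted change depends on the prior count.

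miRNAs were then grouped by what is reported of them. Of 22 tested miRNAs reported to rise in activated primary T cells, 8 rose and 0 fell, where 1.43% of all tested rose and 0.477% fell, with a median change of 0.28 beside 0.01 over all tested. This median is the same with miR-212-5p at its lower bound. The list had been drawn up with these data known and includes both arms of miR-132, miR-212 and miR-21, so it is no independent evidence. Its members that did not pass included miR-155-5p, miR-210-3p (log2 0.04), miR-17-5p (-0.03) and miR-183-5p (-0.02). Of 17 reported to fall, none rose or fell in edgeR (0 at an unadjusted p under 0.05, 0 in DESeq2 and 0 in limma-voom), with changes from -0.52 to 0.31 and a median of -0.08. Among them, miR-181a-5p, which tunes T cell receptor sensitivity, changed by 0.11 (95% interval -0.17 to 0.39) and miR-150-5p, which represses MYB, by -0.14 (-0.42 to 0.15).

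**Figure D4:**
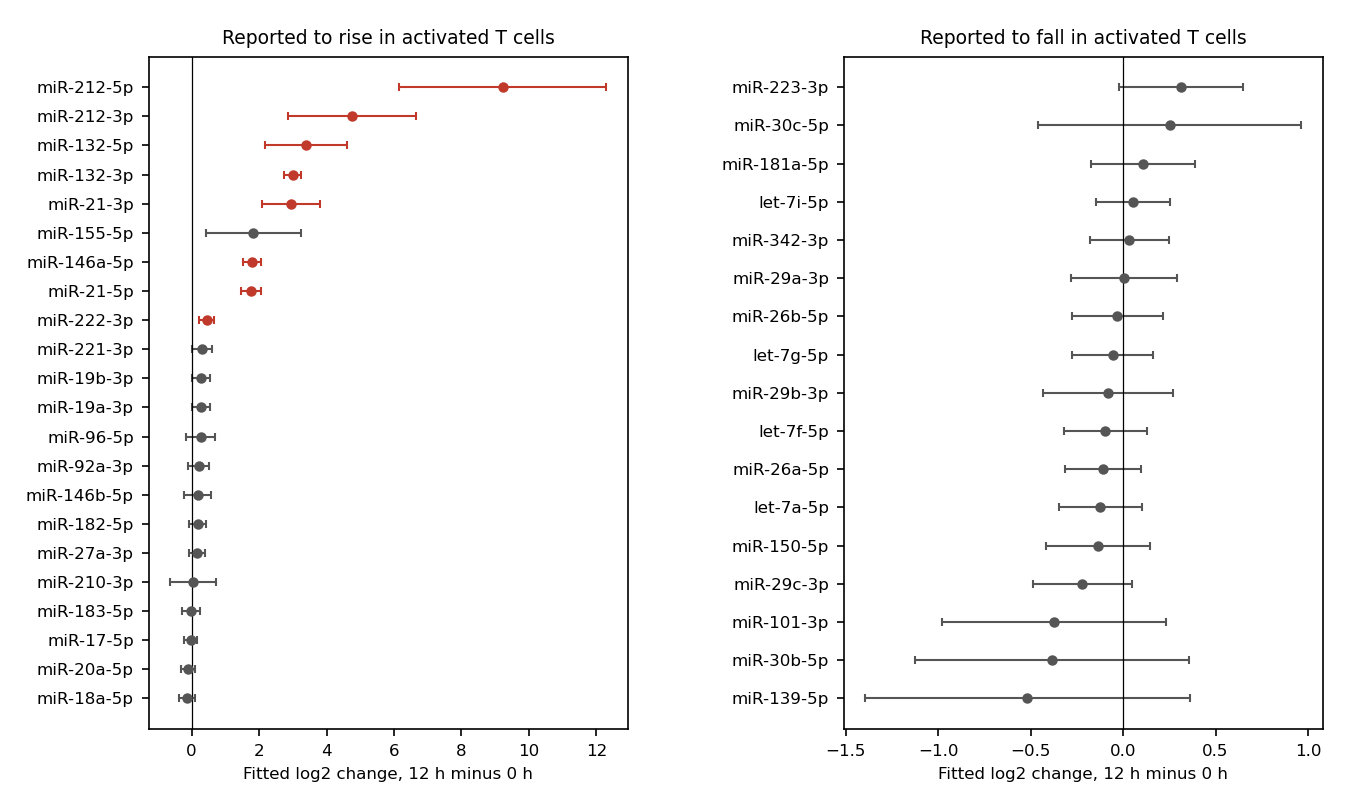
Fitted log2 change at 12 h minus 0 h of each tested member of 2 lists, miRNAs reported to rise (left, 22) and to fall (right, 17) in activated T cells; points are estimates, bars are 95% intervals, red marks miRNAs that rose, and the scales of the panels differ. The 8 red points lie right of 0, and in the right panel every interval includes 0.

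Of 10 tested miRNAs whose genes are reported targets of NF-kB, 3 rose (miR-146a-5p, miR-21-5p and miR-222-3p; median 0.31), and 7 of 10 reported targets of CREB or AP-1 rose (median 2.39). Over all tested, 1.43% rose and the median was 0.01. The lists share members, and miR-132, miR-212 and miR-21 make up 6 of the 7. Both lists had also been drawn up with these data known, so they are no independent evidence. The blood list had 2 of 13 that rose, miR-146a-5p and miR-142-3p, and the call of the latter was lost in 18 of 23 alternative settings. miR-342-3p, a T and B cell miRNA, was at 10886, 9999 and 10822 CPM at 0 h and at 10499, 12045 and 9908 CPM at 12 h (log2 0.03, 95% interval -0.18 to 0.25).

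None of 11 tested arms of the miR-17~92 cluster, which promotes proliferation of lymphocytes, passed in edgeR (3 at an unadjusted p under 0.05, 0 in DESeq2, 0 in limma-voom). Over all 629 tested, 1.91% passed and 48 had an unadjusted p under 0.05. At that share, 0 past the threshold is the usual outcome for a list this small and does not set it apart. miR-17-5p was at 19512, 20210 and 19848 CPM at 0 h and at 20230, 19238 and 19035 CPM at 12 h, with a 95% interval of -0.22 to 0.17 and overlapping groups. Of the 6 arms of the miR-106b~25 cluster, miR-25-5p was the 1 that fell, and miR-93-5p, its most abundant arm, changed by -0.06 (95% interval -0.36 to 0.25). The cluster from miR-106a to miR-363 had 0 of 7 past the threshold (2 at an unadjusted p under 0.05, 0 in DESeq2 and 0 in limma-voom).

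The let-7 family, which represses growth genes and held the largest share of the counts, had 0 of 9 past the threshold in edgeR (0 at an unadjusted p under 0.05, 0 in DESeq2 and limma-voom), with changes from -0.21 to 0.09. let-7a-5p was at 122392, 141597 and 162323 CPM at 0 h and at 121771, 134251 and 135629 CPM at 12 h, a change of -0.12 with a 95% interval of -0.35 to 0.10. The miR-15/16, miR-232724, miR-30 and miR-181 families and the CLCN5 intron cluster also had 0 past the threshold and 0 at an unadjusted p under 0.05, and DESeq2 and limma-voom called none of them. The miR-29 family (7 tested) and the miR-183 cluster (5 tested) had 0 past the threshold in edgeR and 1 each at an unadjusted p under 0.05. DESeq2 called 1 in the latter, miR-96-3p. Only 1.91% of all tested passed, so 0 past the threshold does not set lists of this size apart.

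The precision of these statements depends on the level. For the 58 miRNAs at 1000 CPM or more, which held 96.5% of the counts, the median SE was 0.12, and for 57 of them the whole 95% interval lay within a 2-fold change in either direction. In that class miR-132-3p was the 1 miRNA that changed by over 2-fold. From 100 to 1000 CPM the median SE was 0.17 over 80 miRNAs, with 76 intervals inside 2-fold. Under 10 CPM it was 1.79 over 341 miRNAs, no interval lay inside 2-fold, and of 145 estimates beyond 2-fold only those of miR-212-3p and miR-212-5p passed. A change of 2-fold was therefore not detectable for most scarce miRNAs in these libraries.

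The 10 most abundant miRNAs held 67.5%, 69.4% and 69.1% of the counts at 0 h and 66.5%, 67.6% and 66.4% at 12 h. The groups overlapped and the difference was -1.82 percentage points (exact two-sided permutation p = 0.2, where 0.1 is the smallest that 3 against 3 can give). The less abundant arms of all hairpins together held 1.55% ± 0.0583 at 0 h and 1.61% ± 0.0891 at 12 h (exact two-sided permutation p = 0.5).

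At 100 CPM or more, 138 miRNAs were tested, of which 7 passed (5.07%) and 17 had groups that did not overlap (12.3%), with 12 higher (8.7%) and 5 lower (3.62%). The largest such differences among those that did not pass in edgeR were small. miR-141-3p, of the epithelial miR-200 family, was at 83.2, 82.9 and 98.4 CPM at 0 h and at 108, 105 and 151 CPM at 12 h (log2 0.46, SE 0.21). miR-320b, of a family matured without Drosha, changed by 0.33, miR-223-3p, a miRNA of myeloid cells, by 0.31, miR-19a-3p, of the miR-17~92 cluster, by 0.28 and miR-424-3p by 0.27. On the lower side miR-20b-3p, a minor arm of the cluster from miR-106a to miR-363, was at 221, 178 and 246 CPM and then at 147, 175 and 162 CPM (log2 -0.41, SE 0.17), miR-345-5p changed by -0.27 and miR-150-5p by -0.14.

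The T lineage miRNAs miR-181a-5p, miR-142-3p and miR-342-3p were abundant at both times. miR-150-5p, on the same marker list, was scarcer, with 4353, 3563 and 1711 counts at 0 h and 3080, 2965 and 1648 at 12 h. In each of these libraries it had fewer counts than miR-9-3p, a miRNA known from brain. Of 39 markers of other cell types, 16 had 0 counts in all 6 libraries, among them the muscle miRNAs miR-1-3p, miR-133a-3p and miR-206, the epithelial miR-205-5p and the neuronal miR-124-3p. Of these markers, 0 of 17 tested passed in edgeR, where 1.91% of all tested miRNAs did, and 0 passed in DESeq2 and in limma-voom. An unadjusted p under 0.05 was reached by 1, miR-141-3p. The summed level of the 39 markers was 2044 to 2539 CPM at 0 h and 1924 to 2366 CPM at 12 h. The largest part came from both arms of miR-9 and from miR-128-3p, known from brain: miR-9-3p was at 854, 1006 and 1005 CPM at 0 h and at 911, 969 and 773 CPM at 12 h. The liver miRNA miR-122-5p was at 0, 3.17 and 3.41 CPM at 0 h and at 13.9, 14.4 and 9.22 CPM at 12 h, did not pass (log2 2.57, SE 1.25, edgeR adjusted p = 0.651), and stood at 105 CPM in replicate 3 of 5 h.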

How the data were processed

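Small RNA libraries, made with RealSeq kits from total RNA per the labels' protocols, were compared for 3 samples at 0 h and 3 at 12 h. The authors deposited raw counts per pair of precursor and mature miRNA (2883 rows). They also deposited log2 values, which equal log2 of the count divided by 1 factor per library, plus 1, and served only as an alternative. Per the submitters' processing notes the genome was GRCh38.p13 and DESeq2 was used; aligner and counter: not given in the sources used here.

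Reads of 165 mature miRNAs appear on several precursor rows, so the row with the highest total was kept, which dropped 35.4% to 36.7% of the counts. edgeR 4.0.16 (R 4.3.3; filterByExpr with a minimum count of 10 and total of 15, TMM, quasi-likelihood) was fitted over all 9 libraries with 1 mean per time, so the 5 h libraries add to the estimate of the spread. edgeR put the common biological variation at 78.7%. Arm ratios, log2 of (5p + 0.5) over (3p + 0.5) counts with both arms at 10 or more counts in at least 3 libraries, were tested in limma 3.58.1. The fits were tested on simulated data. Shares were compared by exact permutation.

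The members and lists were chosen with earlier results of these data known. Named were all miRNAs past the threshold with their opposite arms, the 10 most abundant, the 5 largest non-overlapping differences each way at 100 CPM or more among the rest, up to 4 members of each list by level, 8 of interest in T cells, and arm ratios or seeds past the threshold. miR-31-5p, 1 of these, had too few counts to be tested. miR-96-3p, miR-454-5p, miR-590-5p, miR-210-3p and the arm ratios discussed (those of miR-26a-1, miR-23b and miR-4687 among them) were added after their values were seen, as was leaving out both shallow libraries. Other alternatives were further scalings, filters, DESeq2 1.42.0, limma-voom, other treatments of precursor rows, only the 2 groups, a replicate block, and each library left out. Positions are from GENCODE 29.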

Additional observations from a re-analysis of the deposited data

How the results depend on the processing

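The rise of miR-132-3p, miR-146a-5p, miR-21-5p and miR-21-3p passed in all 23 alternatives, and miR-212-5p and miR-4521 passed in all 22 that could test them. The remaining calls were lost in some: miR-132-5p in 3, miR-212-3p in 2, miR-296-3p in 3, miR-25-5p in 6, miR-222-3p in 17 (adjusted p 0.00228 to 0.52) and miR-142-3p in 18 (0.00536 to 0.565). Of the named results under each alternative, 2259 kept their side of the threshold, 67 lost it, 12 gained it, and none that passed in either setting changed sign.

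With only the 0 h and 12 h libraries, 7 miRNAs passed (5 rose, 2 fell), 5 seeds passed (1 fell) and 4 arm ratios passed (2 higher, 2 lower). The miRNA calls lost there were miR-132-5p (edgeR adjusted p = 0.075), miR-212-3p and miR-25-5p (0.0877 each), and miR-142-3p and miR-222-3p (0.201 each). On the deposited log2 values, which lack both arms of miR-212, 6 miRNAs passed and 4 rose. With upper quartile factors 1 miRNA fell. With both arms at 50 or more counts, 1 arm ratio passed (1 lower, miR-92a-2, adjusted p = 0.0263). The cause was not tested for these. Leaving out 1 library at a time gave 8 to 11 miRNAs past the threshold, 7 to 8 that rose and 1 to 3 that fell (1 without replicate 1 of 0 h). For arm ratios it gave 0 to 3 in all, 0 to 2 higher and 0 to 1 lower (1, 2 and 3 in all when replicate 1 of 0 h, replicate 1 of 5 h or replicate 2 of 5 h was left out). For seeds it gave 6 to 9 in all, 5 to 7 that rose and 1 to 3 that fell (1 without replicate 1 of 0 h or replicate 2 of 12 h). The share of the 10 most abundant miRNAs differed by -2.42 to -1.44 points and that of the less abundant arms by 0.0251 to 0.11 points.

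Over 138 miRNAs at 100 CPM or more, deviations of same-numbered 0 h and 12 h libraries from their group means correlated at -0.085, -0.033 and 0.644. Differently numbered libraries ran from -0.728 to 0.76. Deviations from a mean of 3 libraries constrain each other, so this cannot settle whether the replicate numbers pair the samples. With the replicate number as a block, 13 miRNAs passed (10 rose, 3 fell), among them all 12 of the unblocked fit, with 0 arm ratios and 10 seeds (7 rose, 3 fell). The added one was miR-122-5p (adjusted p = 9.66e-08), which also passed with no filter on low counts (0.000109). It passed in only 2 of 21 alternatives. In these fits the edgeR adjusted p of miR-132-5p was also far lower (2.05e-24 and 1.29e-23, against 0.00136 in the main fit). That of miR-142-3p was not (0.0454 and 0.0814, against 0.0435). For the 341 miRNAs under 10 CPM, every 95% interval reached beyond 2-fold, and whether depth or the spread between replicates set that width was not tested.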
